A study of Homo sapiens with 9 samples.

Results

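Catalase and 9 other enzymes that dispose of superoxide and peroxides were followed across 9 total RNA libraries of the embryonic stem cell line H1, which is of human origin and widely used. The genes are CAT, SOD1, SOD2, PRDX1, PRDX2, PRDX3, GPX1, GPX4, TXNRD1 and GSR, which are 10 of the 60829 rows of the deposited table, and all 10 passed the filter on low counts. They were selected on symbol, with the differences between the clones already known, so every difference of these 10 between the clones is a description without a test. Of the libraries, 5 come from a clone in which a locus on chromosome X, named HERVHlin in the labels, was knocked out (chrX-KO_H1). The other 4 come from a control clone (chrX-ctrl_H1) whose genotype is labelled WT. Both clones were grown in mTESR medium on vitronectin and passaged in clumps with versene. Each library is another passage of the same clone, treated by the submitters as technical replicates in their design text although their titles call them biological. There is thus 1 clone per group, and differences between clones and differences caused by the knockout cannot be told apart. A treatment label calls the cells of all 9 libraries differentiated, although the growth medium is one for stem cells.

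Superoxide, a by-product of respiration, is converted to hydrogen peroxide by superoxide dismutases. Catalase splits hydrogen peroxide inside peroxisomes, while peroxiredoxins and glutathione peroxidases reduce peroxides in the cytosol, mitochondria and membranes with electrons from thioredoxin or glutathione. Thioredoxin reductase and glutathione reductase then recharge these carriers with NADPH. In human pluripotent stem cells, which are known to rely heavily on glycolysis, these enzymes are part of the general defence against oxidants.

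Values are normalized counts, meaning recovered whole reads divided by 1 size factor per library, and a log2 difference is knockout minus control on log2(normalized count + 1) with its standard error (SE). The knockout libraries held 21434888 to 31192630 recovered reads and the control libraries 19838682 to 30388797. Protein-coding rows took 26.3% to 47.5% of the normalized counts in knockout libraries and 27.5% to 50.8% in control libraries, and the highest share was in control 3. This library stood apart. Of 11677 protein-coding rows with a mean of 50 or more, 81.1% were higher in control 3 than the mean of the other controls, by a median of 0.48 on the log2 scale. The submitters mark 3 rows as the knocked-out element. One of these, gene.human_00015544, lay between 25.9 and 73.0 in knockout libraries and between 1316 and 3935 in control libraries. Another lay between 68.0 and 168.8 in knockout libraries and between 312 and 1036 in control libraries, and the third overlapped between the clones. All 14 pluripotent cell markers were detected, with summed counts of 34280 to 51005 in knockout libraries and 39221 to 83602 in control libraries. Of these, 13 had a negative log2 difference. The median was -0.39, but -0.15 without control 3, -0.57 without control 4, -0.18 with equal protein-coding totals and -0.08 after quantile normalization. Over all tested rows the median was 0.01, and 0.21 with equal protein-coding totals. Of the 14, 0 passed limma's adjusted threshold of 0.05 (3 at an unadjusted p under 0.05, 0 by edgeR and 1, UTF1, by DESeq2). Over all 27777 rows tested with limma, 0.54% passed that threshold and 8.63% had an unadjusted limma p under 0.05. The shares were 0.544% with edgeR and 2.06% with DESeq2. The most abundant of the 14 markers, LIN28A and POU5F1, stood at -0.38 (SE 0.26) and -0.39 (SE 0.26), with limma adjusted p = 0.75 and 0.74. UTF1, named after its value was seen, had the largest difference of the 14. It measured 93.7 ± 41.4 in the knockout clone and 368.4 ± 132.6 in the control clone (SD, n = 5 and 4). Its log2 difference was -1.98 (SE 0.38, limma adjusted p = 0.068). Of 21 markers of differentiated cells, 8 passed the filter, led by THY1, which human pluripotent cells also express, COL1A1 and COL1A2. None of the 8 was called by limma, edgeR or DESeq2 and 1 had an unadjusted limma p under 0.05, which was that of COL1A1. THY1 stood at -0.23 (SE 0.24), COL1A2 at -0.01 (SE 0.17) and COL1A1 at -0.78 (SE 0.28), with limma adjusted p = 0.82, 0.99 and 0.42. The median of the 8 was -0.20, and between -0.39 without control 4 and 0.01 with equal protein-coding totals over the alternatives. The summed markers of differentiated cells stood at 3175 to 4726 in knockout libraries and 3415 to 6099 in control libraries, and SOX17, FOXA2 and CDX2 were at 0 in every knockout library and averaged 0.494, 0.719 and 0.531 in control libraries. PAX6, a neural marker that did not pass the filter, was at 10.1 ± 5.28 in the knockout clone and 4.47 ± 1.58 in the control clone (SD, n = 5 and 4). What these library and marker differences contribute to the results below was not tested.

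CAT was the member that differed most between the clones. It measured 278.8, 266.1, 283.0, 300.5 and 258.7 normalized counts in knockout libraries 1 to 5, against 122.2, 101.0, 113.0 and 103.9 in control libraries 1 to 4. The lowest knockout library held more than 2 times as much as the highest control library, and the groups did not overlap. The means were 277.4 ± 16.1 (SD, n = 5) in the knockout clone and 110.02 ± 9.60 (SD, n = 4) in the control clone, a ratio of 2.52 and a log2 difference of 1.33 (SE 0.13). As in any bulk sample, a change in the number of cells that carry the transcript and a change in its amount per cell cannot be told apart. Among the 11677 protein-coding rows with a mean of at least 50, 12 had a larger positive log2 difference. In either direction, 0.822% of these rows had a larger absolute log2 difference than CAT. The difference lay between 1.29, without control 2, and 1.53, with equal protein-coding totals, over all 18 alternative settings.

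CAT was not high in control 3, the library that stood apart. The log2 value of CAT there lay 0.06 above the mean of the other controls, where the median protein-coding row with a mean of at least 50 lay 0.48 above. The coefficient of variation of CAT was 5.82% among knockout libraries and 8.73% among control libraries. Counting error alone, from the 65 to 402 reads that CAT had per library, comes to 5.82% and 10.01% on average in these groups, so on the deposited scale the spread between passages was no larger than that of counting. The within-clone SD of CAT on the log2 scale, 0.10, stood at the 0.694th percentile of those protein-coding rows, whose median was 0.33. CAT was chosen with its difference known, and a small spread within clones makes a call more likely. Its low spread and its place in control 3 are thus descriptions only. When the libraries were brought to equal protein-coding totals, CAT stood at 244.8 to 365.9 in knockout libraries and at 72.9 to 124.6 in control libraries. On that scale control 3 became the lowest library, and the coefficients of variation, 16.1% among knockout libraries and 22.5% among control libraries, were larger than the counting error. The groups still did not overlap.

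**Figure D1:**
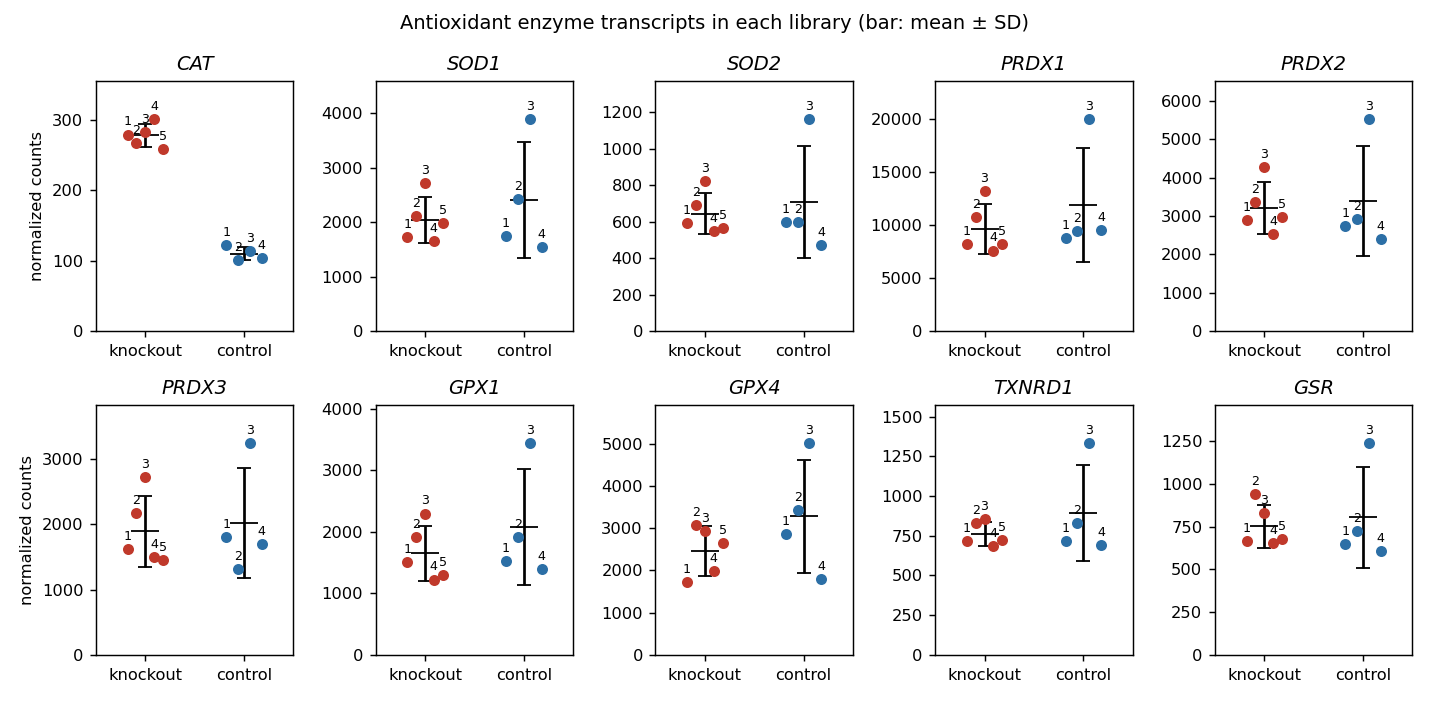
Normalized counts of each member (vertical axis, linear from 0) in the knockout libraries (red, left) and control libraries (blue, right), with the library number beside each point and the mean ± SD as a black bar. CAT lies between 258.7 and 300.5 in knockout libraries and between 101.0 and 122.2 in control libraries, while for the other 9 members control 3 is the highest point.

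The CAT gene lies on chromosome 11, from 34438925 to 34472062 on the plus strand (GRCh38, GENCODE 29), and no other row of the table overlaps its body. Its promoter is shown because CAT is the member that differed. The window runs from 250 bases before to 50 after the start in RefSeq's annotation (GRCh38.p14, chr11:34438684-34438983, plus strand), with each CCAAT, on either strand, in capitals.

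CAT: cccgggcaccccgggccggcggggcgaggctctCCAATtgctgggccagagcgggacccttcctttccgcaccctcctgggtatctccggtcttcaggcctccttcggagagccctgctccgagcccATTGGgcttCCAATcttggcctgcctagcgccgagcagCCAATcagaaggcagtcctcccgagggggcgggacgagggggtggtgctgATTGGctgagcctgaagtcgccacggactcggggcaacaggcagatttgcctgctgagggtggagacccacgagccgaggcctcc

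CCAAT, the core of the box bound by the NF-Y factor, was found 5 times in this window, 3 times as written and 2 times as its reverse complement. The first bases of the matches lay at -217, -123, -114, -85 and -35 from the start, and none overlapped another. At least 1 match was present in 34.6% of 35116 RefSeq promoter windows of the same length, and at least 5 in 0.359%. The core of the antioxidant response element, TGACNNNGC on either strand, which the transcription factor NRF2 recognises, was not in the CAT window and was present in 13.3% of all windows. Promoter windows were found for 7 of the 10 members, 13 windows in all, and SOD1, PRDX1 and GSR could not be searched. Of the 7 searched, TXNRD1 was the single member with the element's core, and CCAAT occurred in windows of 4 members (CAT, SOD2, GPX4 and TXNRD1). The TXNRD1 window with 2 cores is printed for contrast with CAT (chr12:104215529-104215828, plus strand, GRCh38.p14), with the cores and 1 CCAAT in capitals and no overlap among them.

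TXNRD1: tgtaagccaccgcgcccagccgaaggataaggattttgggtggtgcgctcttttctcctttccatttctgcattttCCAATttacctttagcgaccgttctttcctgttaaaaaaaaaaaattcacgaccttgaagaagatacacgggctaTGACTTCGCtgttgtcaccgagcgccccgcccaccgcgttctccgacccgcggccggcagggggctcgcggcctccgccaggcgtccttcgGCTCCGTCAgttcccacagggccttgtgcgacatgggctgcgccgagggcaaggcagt

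The cores start at -99, as written, and at -8, as the reverse complement. These matches describe letters in the windows, and binding was not measured.

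Protein-coding genes around CAT lay closer to 0. Of 40 rows with a gene body within 1 Mb of CAT, 17 were tested and 0 were called by limma, also 0 at an unadjusted p under 0.05 and 0 by edgeR or DESeq2. The same rules called 0.54% of 27777 tested rows with limma (150 rows, 0.115% higher and 0.425% lower in the knockout clone, and 43 with the replicate number as a block), 8.63% at an unadjusted limma p under 0.05, 0.544% with edgeR and 2.06% with DESeq2. The 12 protein-coding genes among the 17 had log2 differences from -0.36 to 0.44, and the libraries of the clones overlapped for every one of them. The nearest, ABTB2, at -80.9 kb from CAT (that is, before its start), measured 43.7 ± 4.19 in the knockout clone and 59.0 ± 20.4 in the control clone (SD, n = 5 and 4), a log2 difference of -0.36 (SE 0.25). After CAT, APIP, an enzyme of methionine salvage, stood at -0.19 (SE 0.26) and PDHX, a subunit of the pyruvate dehydrogenase complex, at -0.25 (SE 0.20). CD44, a hyaluronan receptor, stood at -0.30 (SE 0.30) and CD59, an inhibitor of complement, at -0.11 (SE 0.20). The RNA-binding protein gene CAPRIN1 stood at 0.11 (SE 0.24), the acetyltransferase gene NAT10 at -0.08 (SE 0.25) and FBXO3, an F-box protein gene, at -0.06 (SE 0.25). The other protein-coding neighbours averaged between 9.92 and 28.4 normalized counts in each clone, with KIAA1549L at 0.01 (SE 0.34), LMO2 at 0.44 (SE 0.48), SLC1A2 at 0.14 (SE 0.40) and PAMR1 at -0.21 (SE 0.27). Among the 5 other tested rows, named after their values were seen, the miRNA gene row MIR1343 had the largest log2 difference of the 17, 3.75 (SE 1.75, limma adjusted p = 0.60). It measured 40.2, 0, 62.9, 194.3 and 148.9 in knockout libraries 1 to 5, against 60.6, 0, 0 and 0 in control libraries 1 to 4, so it was at 0 in libraries of both clones. A Y_RNA row, also at 0 in libraries of both clones, stood at 2.51 (SE 1.97, limma adjusted p = 0.78). CD44-AS1, which is antisense to CD44, stood at 0.48 (SE 0.52), and the last 2 rows lay between 0.09 and 0.10. The median of the 17 tested rows was 0.01, and between -0.13 without control 4 and 0.20 with equal protein-coding totals. Over all tested rows the median was 0.01 with the deposited scaling and 0.21 with equal protein-coding totals.

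**Figure D2:**
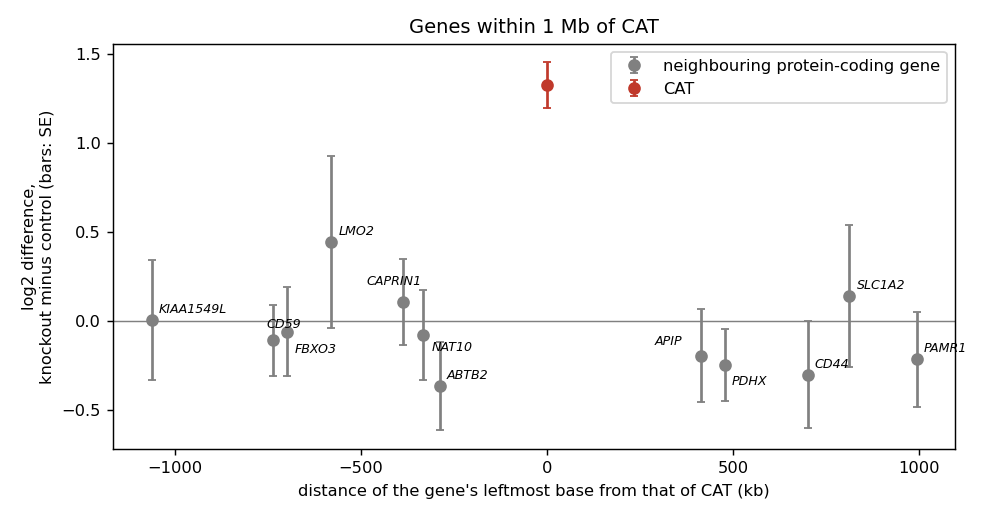
Log2 difference, knockout minus control, with its SE (vertical axis) of CAT (red) and of the 12 tested protein-coding genes within 1 Mb (grey) by the distance of each gene's leftmost base from that of CAT in kb (horizontal axis). CAT lies at 1.33 and its neighbours between -0.36 and 0.44.

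The superoxide dismutases did not follow CAT. SOD1, the copper and zinc enzyme of the cytosol (chromosome 21, 31659622 to 31668931), measured 1732, 2107, 2724, 1651 and 1982 in knockout libraries 1 to 5, against 1750, 2422, 3888 and 1548 in control libraries 1 to 4. The clones overlapped, control 3 was highest and control 4 lowest, and the log2 difference was -0.16 (SE 0.27). SOD2, the manganese enzyme of the mitochondrial matrix (chromosome 6, 159669057 to 159745186), measured 594.9, 690.01, 824.4, 549.3 and 564.6 in knockout libraries, against 598.2, 599.7, 1161 and 474.2 in control libraries. Apart from control 3 all its libraries lay between 474.2 and 824.4, and its log2 difference was -0.07 (SE 0.25). The body of SOD2 overlaps that of WTAP on the other strand and a small nuclear RNA pseudogene on its own, with means of 186% and 34.0% of that of SOD2, and no label or header states whether reads were counted by strand.

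The peroxiredoxins include the member with the highest level per kb. PRDX1, a cytosolic thiol peroxidase (chromosome 1, 45511036 to 45523047), measured 8164, 10712, 13197, 7595 and 8231 in knockout libraries 1 to 5, against 8772, 9426, 19954 and 9486 in control libraries 1 to 4. Control 3 held more than 2 times as much as any other control, and the remaining controls lay inside the range of the knockout clone (log2 difference -0.26, SE 0.28). PRDX2, its close relative in the cytosol (chromosome 19, 12796820 to 12801859), measured 2904, 3359, 4290, 2519 and 2968 in knockout libraries, against 2741, 2927, 5523 and 2391 in control libraries. PRDX3, the mitochondrial member (chromosome 10, 119167703 to 119178833), measured 1622, 2169, 2726, 1504 and 1457 in knockout libraries, against 1805, 1316, 3247 and 1704 in control libraries. Both overlapped between the clones, were highest in control 3 and next highest in knockout 3, and had log2 differences of -0.02 (SE 0.26) and -0.05 (SE 0.28). PRDX2 shares its strand and part of its body with HOOK2, whose mean was 11.8% of that of PRDX2.

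Glutathione peroxidases showed the most negative log2 differences of the 10, each close to 1 SE in size. GPX1, a selenoprotein that reduces hydrogen peroxide (chromosome 3, 49357171 to 49358600), measured 1506, 1920, 2296, 1224 and 1290 in knockout libraries 1 to 5, against 1531, 1922, 3443 and 1398 in control libraries 1 to 4 (log2 difference -0.28, SE 0.29). GPX4, a selenoprotein that reduces lipid hydroperoxides and guards against ferroptosis (chromosome 19, 1103926 to 1106791), measured 1724, 3068, 2929, 1978 and 2648 in knockout libraries, against 2871, 3440, 5023 and 1788 in control libraries (log2 difference -0.35, SE 0.30). The clones overlapped for both. GPX4 was the one member whose second highest library was control 2.

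The reductases recharge the carriers that these peroxidases use. TXNRD1, the cytosolic thioredoxin reductase and a selenoprotein (chromosome 12, 104215779 to 104350305), measured 719.4, 833.2, 852.4, 683.9 and 725.3 in knockout libraries 1 to 5, against 719.3, 828.1, 1335 and 691.8 in control libraries 1 to 4. GSR, glutathione reductase (chromosome 8, 30678061 to 30727999), measured 663.9, 939.2, 827.9, 656.2 and 678.9 in knockout libraries, against 647.1, 722.5, 1240 and 605.1 in control libraries. Again both overlapped between the clones and were highest in control 3. Their log2 differences were -0.18 (SE 0.20) and -0.05 (SE 0.23), and their within-clone SDs on the log2 scale, 0.30 and 0.35, stand beside 0.41 to 0.49 for the dismutases and peroxidases on the deposited scale, a difference in spread that was not tested.

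The 9 enzymes other than CAT had one pattern over libraries in common. Control 3 was the highest of the 9 libraries for all 9 of them, and knockout 3 the second highest for 7. In control 3 they lay 0.84 to 1.11 above the mean of the other controls on the log2 scale, at or above the 77.8th percentile of the 11677 protein-coding rows, where CAT was at the 21.7th. With all libraries in, the 9 log2 differences were negative, from -0.35 to -0.02, but the sign did not hold. Without control 3, 7 of the 9 were positive, up to 0.24 for PRDX2, with GPX1 at -0.00 and GPX4 at -0.11. With equal protein-coding totals 6 of the 9 were positive, up to 0.18 for PRDX2, which is relative to a median of all tested rows that itself moved to 0.21. After quantile normalization 6 were positive as well. Whether the composition of control 3 accounts for these differences was not tested.

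**Figure D3:**
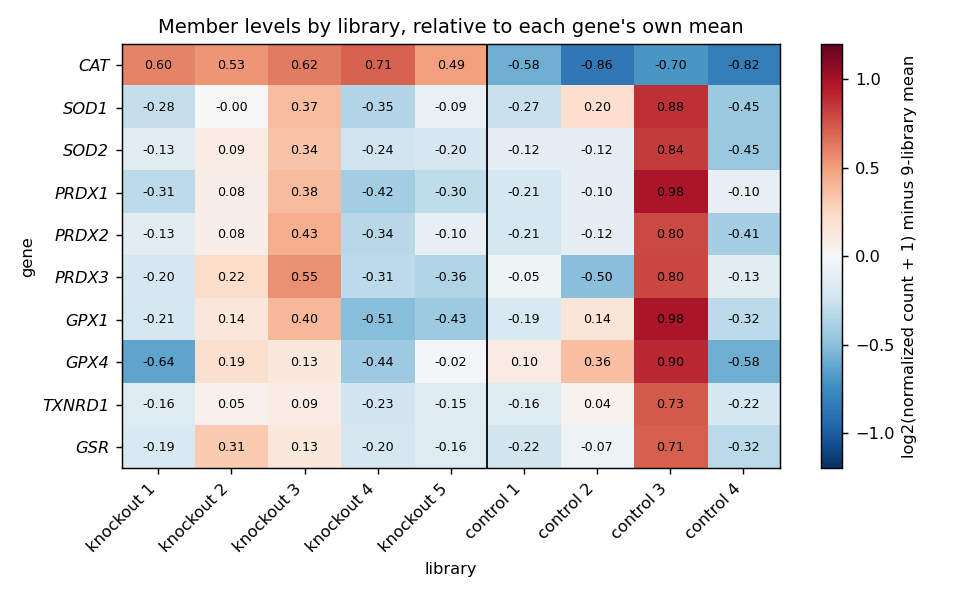
Log2(normalized count + 1) of each member (rows) in each library (columns, knockout left of the black line and control right of it) minus the gene's mean over the 9 libraries, as colour and number. CAT is above its mean in every knockout library and below it in every control library, and the other 9 are highest in control 3.

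**Figure D4:**
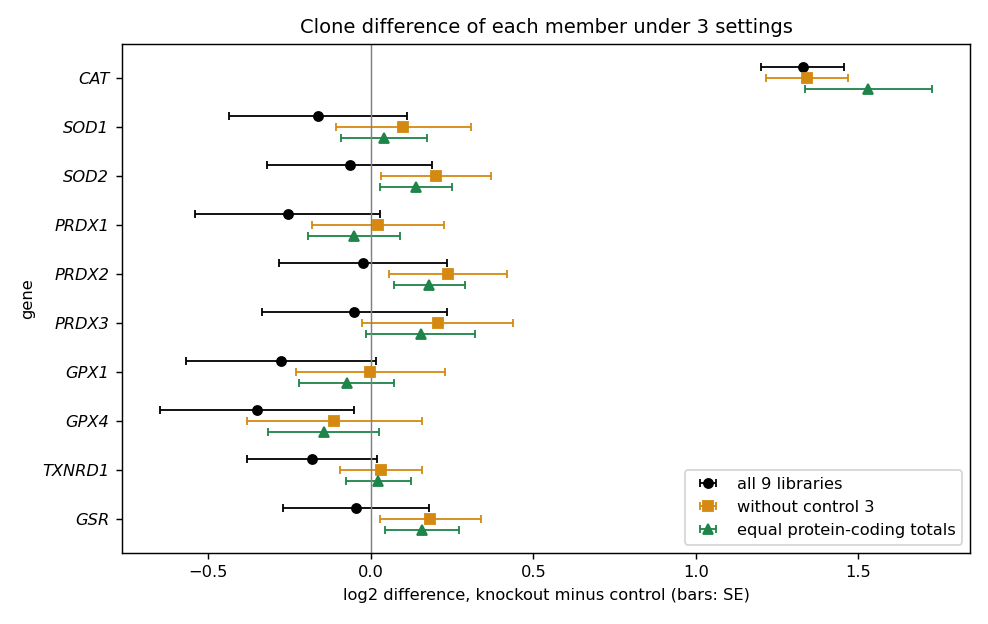
Log2 difference, knockout minus control, with its SE (horizontal axis) of each member with all 9 libraries (black circles), without control 3 (orange squares) and with equal protein-coding totals (green triangles). CAT stays between 1.33 and 1.53 in these 3 settings, while 7 of the other 9 change sign without control 3.

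As a call under limma's adjusted threshold of 0.05, CAT was 1 of 10 members and the other 9 were not called, beside 0.54% of all tested rows. CAT was likewise the single member whose libraries did not overlap between the clones, beside 3.95% of all tested rows. Because CAT was known to differ when the list was made, nothing is read from these counts.

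Relative to the summed counts of the other 9 members, CAT was higher in the knockout clone. The counts of the other 9 members summed to 18361 to 30666 in knockout libraries and 20087 to 44813 in control libraries. For every 1000 of these counts there were 14.2, 10.3, 9.23, 16.4 and 12.6 counts of CAT in knockout libraries 1 to 5, against 5.70, 4.28, 2.52 and 5.17 in control libraries 1 to 4. The mean was 12.5 ± 2.89 (SD, n = 5) in the knockout clone and 4.42 ± 1.39 (SD, n = 4) in the control clone.

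Levels were compared between genes per kb of transcript, taking the median length of each gene's principal GENCODE 29 transcripts. PRDX1 led in both clones, at 8496 ± 2086 normalized counts per kb in the knockout clone and 10563 ± 4765 in the control clone (SD, n = 5 and 4). GPX4, PRDX2, SOD1, GPX1 and PRDX3 followed at 1191 to 3250 on average in the knockout clone and 1268 to 3570 in the control clone, and neighbours in this order overlapped between libraries. TXNRD1, SOD2 and GSR formed a lower tier of overlapping levels, 236.0 to 260.2 on average in the knockout clone and 251.8 to 304.8 in the control clone. CAT was lowest, at 120.8 ± 7.03 per kb in the knockout clone and 47.9 ± 4.18 in the control clone, and did not overlap GSR in either clone. The place of SOD2 depends on its length, since its principal transcripts span 990 to 14266 bases. At the shortest of these lengths its means per kb would be 651.2 in the knockout clone and 715.5 in the control clone, above the rest of the lower tier. At the longest of these lengths its means per kb would be 45.2 in the knockout clone and 49.7 in the control clone, below CAT in the knockout clone and beside the 47.9 of CAT in the control clone. The principal transcripts of TXNRD1 span 1933 to 3930 bases, so its level per kb depends on the length taken as well.

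Other genes of the same pathways were counted from lists chosen by function. The counts in each list below stand beside the shares over all tested rows. These shares were 0.54% with limma, 0.544% with edgeR, 2.06% with DESeq2 and 8.63% at an unadjusted limma p under 0.05. Whether a list departs from these shares was not tested. Of 39 tested genes of the thiol and glutathione system, 0 were called by limma, edgeR or DESeq2, and 4 had an unadjusted limma p under 0.05 (1 higher, 3 lower). The median log2 difference was -0.16, which ran from -0.24 without knockout 3 to 0.09 without control 3. The abundant glutathione transferases GSTP1, at 8764 ± 2676 in the knockout clone and 11874 ± 4588 in the control clone, and MGST1, at 5661 ± 1140 and 6424 ± 1477 in the same order (SD, n = 5 and 4), stood at -0.41 (SE 0.29) and -0.18 (SE 0.20), with limma adjusted p = 0.76 and 0.83.

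Among 29 tested regulators and targets of NRF2, the factor that induces many antioxidant genes, 0 were called by limma or edgeR, 5 had an unadjusted limma p under 0.05 (1 higher, 4 lower), and the median was -0.23. It was -0.12 without control 3, -0.43 without control 4 and -0.03 with equal protein-coding totals. The ferritin subunit genes FTL and FTH1, the most abundant of the list, stood at -0.48 (SE 0.30) and -0.16 (SE 0.31), with limma adjusted p = 0.72 and 0.89. DESeq2 called 2 of the list, named here after their values were seen. ME1, the cytosolic malic enzyme that yields NADPH, measured 62.0 ± 10.3 in the knockout clone and 30.2 ± 9.21 in the control clone (SD, n = 5 and 4), a log2 difference of 1.04 (SE 0.24, limma adjusted p = 0.13). NFE2L1, a relative of NRF2, measured 1005 ± 132 in the knockout clone and 1451 ± 165 in the control clone, a log2 difference of -0.53 (SE 0.15, limma adjusted p = 0.22).

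The peroxisome is the organelle that holds catalase. Of 50 tested peroxisomal genes 0 were called by limma or edgeR, 2 had an unadjusted limma p under 0.05 (1 higher, 1 lower), 26 had a negative log2 difference, and the median was -0.00, which ran from -0.11 without control 4 to 0.20 with equal protein-coding totals. IDH1, an NADP-dependent isocitrate dehydrogenase of cytosol and peroxisomes, stood at -0.29 (SE 0.30, limma adjusted p = 0.82) and HSD17B4, an enzyme of peroxisomal fatty acid oxidation, at -0.42 (SE 0.22, limma adjusted p = 0.65). PXMP4, a peroxisomal membrane protein gene named after its value was seen, was the 1 gene called by DESeq2. It measured 44.0 ± 9.30 in the knockout clone and 19.6 ± 5.13 in the control clone (SD, n = 5 and 4), a log2 difference of 1.14 (SE 0.26, limma adjusted p = 0.13).

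Genes for selenoprotein synthesis and other selenoproteins had 0 calls of 20 tested by limma, edgeR or DESeq2, 1 unadjusted limma p under 0.05, and a median of -0.27, which was -0.09 without control 3, -0.44 without control 4 and -0.07 with equal protein-coding totals. The abundant SEPHS1 stood at -0.40 (SE 0.26, limma adjusted p = 0.73) and SELENOW at -0.25 (SE 0.29, limma adjusted p = 0.83). Of 22 genes for sources of superoxide and peroxide, such as NADPH oxidases, 14 were tested, 0 were called by limma, edgeR or DESeq2, 1 had an unadjusted limma p under 0.05, and the median was -0.24. This median was -0.32 without control 4, -0.15 without control 1 and -0.04 with equal protein-coding totals. CYBA, a subunit shared by NADPH oxidases, stood at -0.23 (SE 0.21, limma adjusted p = 0.80) and the GTPase gene RAC1 at -0.15 (SE 0.23, limma adjusted p = 0.87). Among 20 tested transcription factors linked to antioxidant genes 0 were called by limma or edgeR, 1 had an unadjusted limma p under 0.05, and the median was -0.17, which was -0.07 without control 3, -0.26 without control 4 and positive, 0.03, with equal protein-coding totals. HIF1A stood at 0.07 (SE 0.16, limma adjusted p = 0.91). FOXO4, a forkhead factor named after its value was seen, was the 1 gene DESeq2 called, at 94.1 ± 22.4 in the knockout clone and 255.9 ± 159.6 in the control clone (SD, n = 5 and 4), a log2 difference of -1.23 (SE 0.40, limma adjusted p = 0.35). The medians of these lists stand beside 0.01 over all tested rows and -0.10 over protein-coding rows with a mean of at least 50. With equal protein-coding totals these comparison medians moved to 0.21 and 0.10. List medians under that setting stand beside those values.

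**Figure D5:**
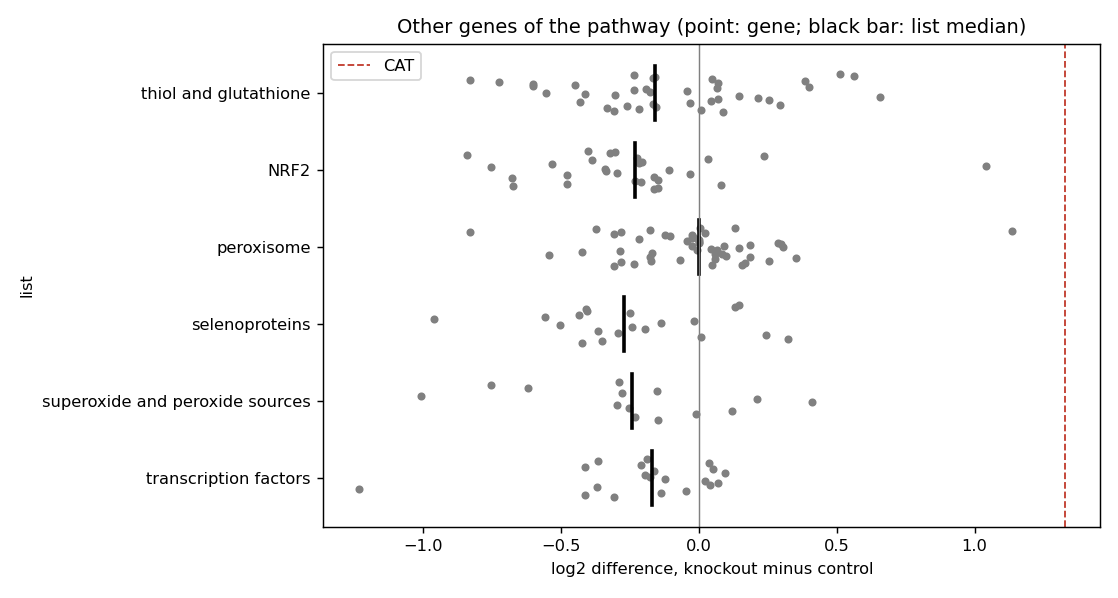
Log2 difference, knockout minus control (horizontal axis), of each tested gene (grey points) in 6 lists of other antioxidant, peroxisomal and redox genes, with the list median as a black bar and CAT as a dashed red line. No point reaches the 1.33 of CAT, and with all 9 libraries the list medians lie between -0.27 and -0.00.

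The patterns most like that of CAT over the 9 libraries were sought among 16114 rows that have a symbol and average 50 or more, by Pearson's r on log2(normalized count + 1). The 5 closest were the lncRNA RP1-85F18.6 (r = 0.98), the Y RNA pseudogene RNY4P24 (0.98), CTSF (0.97), RUFY3 (0.97) and DNAJC15 (0.96). All 9 libraries enter r, so it includes the contrast between the clones. For the deviations from the clone means, r with CAT was between -0.54 and 0.55. RUFY3 measured 488.7 ± 24.2 in the knockout clone and 353.9 ± 24.8 in the control clone (SD, n = 5 and 4), a log2 difference of 0.47 (SE 0.11, limma adjusted p = 0.17). The rest had larger log2 differences than CAT. These were 2.98 (SE 0.17) for RP1-85F18.6, 7.38 (SE 0.37) for RNY4P24, 3.11 (SE 0.30) for CTSF and 6.09 (SE 0.41) for DNAJC15. RNY4P24 was at 0 in every control library and DNAJC15 averaged 0.84 there, so a high r does not mean a change of like size. None of the other 9 antioxidant enzymes resembled CAT, with r between -0.37 and -0.02.

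Reads of near-identical copies could be divided among rows. For 6 of the members the table has 15 rows named as pseudogenes of them, whose summed counts reached at most 7.06% of the member (PRDX3) in a library. CAT, GPX4, TXNRD1 and GSR have no such row.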

How the data were processed

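RNA was purified on columns that include a DNase step, depleted of rRNA and turned into stranded libraries, per the labels' protocols. The submitters' processing notes name fastp, kallisto and DESeq2 and the build hg38. No versions, annotation release or strand setting are stated there. The deposited signal columns hold normalized counts, which the authors scaled with 1 factor for each library. Each value was a whole multiple of the least nonzero value of its library within 1e-06 (100% of values), and dividing by that value gave the reads. The authors' deposited log2 fold changes and adjusted p-values were not used, and their mark for the knocked-out element served to find its 3 rows. Library depth was 19838682 to 31192630 reads.

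The filter on low counts was filterByExpr of edgeR (minimum count 10), and 27777 of 60829 rows passed it. The main test was limma (3.58.1, R 4.3.3), fitted to log2(value + 1) with its trend option, clone as the only term, all 9 libraries, and Benjamini-Hochberg adjustment over all rows at 0.05. This scale understates the change of genes with few reads. Alternatives were pseudocounts 0.5 and 5, no filter, quantile and TMM scaling, a replicate block, edgeR (4.0.16) and DESeq2 (1.42.0) on recovered reads, leaving out each library, and, added after control 3 was seen to stand apart, equal protein-coding totals. The count test, edgeR's quasi-likelihood test, called 151 rows. Scripts were tested on simulated data. The replicate number stands under a batch tag in the labels, so the replicate block treats it as pairing libraries. The main fit does not use it, so the SEs and adjusted p-values of that fit ignore any pairing. Libraries of one number deviated from their clones with r of 0.07, 0.02, 0.25 and 0.33 (replicates 1 to 4, in that order), and knockout 5 has no partner.

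The members and the lists were chosen with earlier results of these data known. All members are named. In each list the 2 most abundant genes are named where none was called (1 of them is not reported here), near CAT every tested protein-coding gene, and for likeness the 5 highest r. Positions are from GENCODE 29, matched on Ensembl IDs, and overlaps are of gene bodies. The counting errors given for CAT cover counting only, while each SE comes from the spread that limma found between libraries within the clones.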

Additional observations from a re-analysis of the deposited data

Results flagged for a closer look

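In 86 groups of 4 or 5 libraries, covering the genes named above, 4 held a library far from the others of its clone, where chance flags about 1 in 20 groups. PRDX1 was at 19954 normalized counts in control 3, far above the other control libraries, which lay between 8772 and 9486. The membrane glutathione transferase gene MGST1 was at 7684 in knockout 3 and the selenophosphate synthetase gene SEPHS1 at 4966 in knockout 3, each far above the other knockout libraries. KIAA1549L, a neighbour of CAT with few reads, was at 10.1 in knockout 2, below the other knockout libraries.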

How the results depend on the processing

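CAT was called and no other member was under each of the 18 alternatives, with log2 differences of CAT from 1.29 to 1.53, and 1.35 with the replicate number as a block. Because CAT was known to differ when the members were chosen, nothing is read from these calls. The signs of the other members changed with control 3 and with the scaling, as given above, except those of GPX1 and GPX4, which were negative in all 18. PRDX2 was also positive without knockout 1 (0.01) or knockout 4 (0.06), and PRDX3 with the replicate block (0.03) and without knockout 4 (0.02) or knockout 5 (0.03). Since knockout 5 has no partner, the block and the fit without knockout 5 give the same log2 differences and are not separate results. Dropping the filter likewise left the log2 difference of every member as in the main fit. Over all rows the count of called rows was 150, and it was 43 with the replicate block, 571 with DESeq2, and 79 to 186 with 1 library left out (79 without knockout 4, 80 without control 2 or knockout 5, 93 without control 1, 94 without control 3 and 95 without knockout 2). NRF2 regulators and targets had 2 calls with DESeq2 and 1 with equal protein-coding totals (ME1). The peroxisome and the transcription factors had 1 each with DESeq2. Pluripotent cell markers had 1 call, UTF1, with DESeq2, with equal protein-coding totals and without control 4, so that leaving out 1 library gave 0 to 1. The other lists had 0 calls under every alternative. The cause of these changes was not tested. CAT rests on 65 to 402 reads per library, so differences between passages smaller than its counting error were not detectable.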

Other observations

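Some other redox genes had an unadjusted limma p under 0.05 without being called by limma, edgeR or DESeq2, beside 8.63% of all tested rows under that p. Those below are named after their values were seen. They are a selection, and others such as PRDX6, PIPOX, SELENOS and RAC2, all lower in the knockout clone, met the same rule. PRDX4, the peroxiredoxin of the endoplasmic reticulum, measured 1100.3 ± 270.1 normalized counts in the knockout clone and 1645 ± 280.1 in the control clone (SD, n = 5 and 4), a log2 difference of -0.60 (SE 0.21, limma adjusted p = 0.40). SLC7A11, the cystine importer that feeds glutathione synthesis, measured 115.1 ± 35.2 in the knockout clone and 203.0 ± 43.6 in the control clone, a log2 difference of -0.84 (SE 0.26, limma adjusted p = 0.30). EPHX1, an epoxide hydrolase and NRF2 target, stood at -0.68 (SE 0.19, limma adjusted p = 0.24), and MAFK, a partner of NRF2 on DNA, at -0.75 (SE 0.21, limma adjusted p = 0.24). GSTM3, a glutathione transferase, measured 51.4 ± 9.04 in the knockout clone and 33.3 ± 12.3 in the control clone, a log2 difference of 0.66 (SE 0.26, limma adjusted p = 0.52).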
